A study of Mus musculus with 8 samples.

Results

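The mitochondrial ribosome protein genes examined here comprise the large subunit genes (symbols Mrpl and a number), the small subunit genes (Mrps and a number) and Gadd45gip1, measured in sorted ureteric bud cells of newborn mouse kidneys. They were taken as every non-control probe on the array whose systematic name is a RefSeq transcript of such a gene. This gave 102 probes for 79 genes (49 large subunit genes with 61 probes, 29 small subunit genes with 39 probes and Gadd45gip1 with 2 probes), of 55681 probes for 37018 genes or transcript names in all. The reference table holds 85 such symbols, and the 6 without a probe are pseudogenes (Mrpl23-ps1, Mrpl48-ps, Mrpl27-ps, Mrps36-ps1, Mrps36-ps2 and Mrps36-ps3). Gadd45gip1 was chosen by its log2 difference between DOT1-null and wildtype in an earlier analysis of these arrays, and the family around it was proposed with those results known. Values of that contrast are therefore given as a description of the members.

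The series compared 4 DOT1-null samples with 4 wildtype samples. DOT1-null samples were ureteric bud cells of C57BL/6 kidneys at postnatal day 0 in which Dot1 had been deleted from the Hoxb7-positive cells, and wildtype samples were the same cells of control mice of the same strain and age. In both groups the cells were collected by sorting for GFP, and no label says how many mice stand behind a sample, so the p-values reflect only how far these samples differ from each other. The deletion was limited to cells positive for Hoxb7, so it marks the ureteric bud lineage and not the whole kidney. Every array held a single sample in Cy5 with wildtype 3 RNA in Cy3, and the array of wildtype 3 held the same RNA in both dyes. A level is given below as the log2 ratio of Cy5 to Cy3, and a difference is the DOT1-null mean minus the wildtype mean of that ratio.

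Mitochondria carry their own ribosome, which makes the few proteins encoded by mitochondrial DNA, all of them parts of the respiratory chain and ATP synthase. Its small subunit reads the messenger RNA and its large subunit joins amino acids, and all its proteins are encoded in the nucleus and imported. Gadd45gip1 (also called CRIF1) encodes a protein of the large subunit near the exit of the peptide tunnel, and it was first described as a partner of the GADD45 proteins. The subunit in a symbol is not always where the protein lies: in human structures the proteins of MRPS18A and MRPS30 are parts of the large subunit, and MRPS36 was later found to belong to 2-oxoglutarate dehydrogenase. The genes are grouped here by symbol.

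Promoters are shown first for 5 members among those with the lowest differences, picked because each holds a short motif that recurs in genes for mitochondria. Other members with differences in the same range hold none of the motifs marked here, among them Mrps12 (-0.52), Mrpl34 (-0.45), Mrps15 (-0.43) and Mrpl49 (-0.40). They are RefSeq promoters of GRCm38.p6, which span the start of each gene, printed 5′ to 3′ on the strand of the gene, with the motif in capitals (AAGATGGCG of YY1 or its reverse complement in the Mrps genes, CCGGAAGT of ETS factors, as its reverse complement, in Mrps27, and GCATGCGC of NRF1, as its reverse complement, in Mrpl17). Gadd45gip1 is named only.
Mrps11 (chr7:78782881-78783180, plus strand): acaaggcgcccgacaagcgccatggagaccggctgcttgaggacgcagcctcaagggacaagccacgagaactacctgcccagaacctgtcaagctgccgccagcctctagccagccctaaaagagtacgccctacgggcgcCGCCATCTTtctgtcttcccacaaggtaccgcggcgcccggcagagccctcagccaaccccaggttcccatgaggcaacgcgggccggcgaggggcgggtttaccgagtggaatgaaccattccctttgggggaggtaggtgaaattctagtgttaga
Mrps24 (chr11:5707652-5707951, minus strand): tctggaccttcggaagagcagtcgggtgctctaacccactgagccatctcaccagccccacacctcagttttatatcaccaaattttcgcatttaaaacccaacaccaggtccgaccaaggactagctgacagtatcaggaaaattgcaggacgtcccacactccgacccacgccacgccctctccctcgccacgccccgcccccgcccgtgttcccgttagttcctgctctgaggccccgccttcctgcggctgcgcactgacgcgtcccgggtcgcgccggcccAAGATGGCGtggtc
Mrps27 (chr13:99344536-99344835, plus strand): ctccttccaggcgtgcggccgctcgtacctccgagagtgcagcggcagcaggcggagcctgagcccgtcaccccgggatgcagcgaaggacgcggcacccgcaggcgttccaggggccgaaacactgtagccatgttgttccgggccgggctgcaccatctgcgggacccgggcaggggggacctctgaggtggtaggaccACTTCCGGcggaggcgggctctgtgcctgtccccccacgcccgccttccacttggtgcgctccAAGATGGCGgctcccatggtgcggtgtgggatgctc
Mrps18a (chr17:46110754-46111053, plus strand): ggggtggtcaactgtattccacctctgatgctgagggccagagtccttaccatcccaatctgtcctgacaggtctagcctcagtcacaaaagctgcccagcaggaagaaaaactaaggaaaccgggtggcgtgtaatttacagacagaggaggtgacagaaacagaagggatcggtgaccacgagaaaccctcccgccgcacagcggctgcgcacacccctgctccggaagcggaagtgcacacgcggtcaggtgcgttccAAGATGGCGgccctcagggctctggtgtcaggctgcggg
Mrpl17 (chr7:105811038-105811337, minus strand): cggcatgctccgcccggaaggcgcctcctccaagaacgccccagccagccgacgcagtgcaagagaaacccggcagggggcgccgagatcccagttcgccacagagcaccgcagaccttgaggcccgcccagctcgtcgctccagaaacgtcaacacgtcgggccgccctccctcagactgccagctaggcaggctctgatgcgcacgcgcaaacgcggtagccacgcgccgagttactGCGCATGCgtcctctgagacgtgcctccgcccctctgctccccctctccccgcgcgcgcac

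The promoter table covered 69 of the member genes with 75 promoters. On either strand, the NRF1 letters lay in the promoters of 8 of these genes (11.6%), against 5.23% of the genes tested and 3.05% of all genes in the table. The ETS letters lay in 12 (17.4%), against 7.74% of the genes tested and 4.31% of all. The YY1 letters lay in 8 (11.6%), against 3.05% of the genes tested and 1.64% of all. Any of these motifs lay in 26 member genes (37.7%), against 15% of the genes tested and 8.47% of all, so the share in the family was above both backgrounds for each motif. The median difference was -0.34 for the 8 members with the YY1 letters and -0.19 for the 60 tested members without them. For NRF1 the medians were -0.13 with the letters (8 genes) and -0.20 without (60 genes), and for ETS -0.15 with (12 genes) and -0.20 without (56 genes). The motifs are matches of letters in a window, not bound sites, and these medians carry no test. Of the YY1 members, Mrps11, Mrps18a, Mrps24, Mrps27, Mrpl37 and Mrpl42 had log2 ratios of 0.43 to 0.71 on the wildtype 3 array. Mrpl35 and Mrpl36 had -0.01 and -0.04 there. Over all 20 member probes above 0.4 on that array, the median difference of DOT1-null to wildtype 1, 2 and 4 was -0.37. The part of that ratio in the YY1 median was not tested.

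The arrays did not behave alike. The share of spots with Cy5 well above background was 59.1%, 68.9%, 95.2% and 61.5% on DOT1-null 1 to 4, against 52.4% to 56.2% on the wildtype arrays. The scanner software marked 7665 of 62976 spots as non-uniform or outlying on DOT1-null 3, among them 4 member probes, and 175 to 216 on each other array. The DOT1-null arrays filled the first row of the slide and the wildtype arrays the other row, and position on the slide cannot be told apart from genotype. Dot1l, by its only tested probe, had a difference of 0.18 (SE 0.11, limma adjusted p = 0.342), which does not check the labels, because no source used here places the probe relative to the deleted part. All 16 ureteric bud markers passed the filter on dim probes. Of the members, 101 of 102 probes and 78 of 79 genes passed the same filter. Every tested member probe was well above background in Cy5 on all 8 arrays, with none saturated in either dye. The filter did not ask for Cy3 above background. Mrpl21 did not pass.

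Gadd45gip1, by its brighter probe A_55_P2150633, had log2 ratios of -0.46, -0.09, -0.39 and -0.37 on DOT1-null 1 to 4, against 0.56, 0.68, 0.56 and 0.63 on wildtype 1 to 4. All DOT1-null arrays were below all wildtype arrays, and DOT1-null 2 was the nearest to them. The Cy5 intensity of this probe was 6561, 8808, 7259 and 5451 on the DOT1-null arrays and 14128, 10852.5, 11002 and 11574.5 on the wildtype arrays. The Cy3 intensity, which measures wildtype 3 RNA on every array, was 1739 to 2037 on arrays with DOT1-null RNA and 1634.5 to 1817.5 on arrays with wildtype RNA. The separation therefore lay in Cy5, where the difference was -0.94 on its own after quantile normalisation, while in Cy3 it was 0.04. The log2 difference of the ratio was -0.94 (SE 0.10, 4 arrays per group), with a limma adjusted p of 0.0411 over 23354 genes and 0.0455 over 31679 probes. It was 1 of 2 genes with an adjusted p under 0.05, both lower in DOT1-null (0.00856% of genes tested, and 0.00631% of probes), and the other was 1190007I07Rik. Since the gene was chosen by this contrast, the call is a description. The call was lost when any array other than DOT1-null 2 was left out (adjusted p of 0.0521 to 0.162), while the difference stayed between -0.95 and -0.89.

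The other Gadd45gip1 probe, A_52_P85020, which the array design assigns to the same transcript NM_183358, did not show the difference. Its log2 ratios were -0.02, 0.25, 0.09 and 0.00 on DOT1-null 1 to 4, against 0.02, 0.04, 0.06 and 0.01 on wildtype 1 to 4. These groups overlapped, and the difference was 0.05 (SE 0.08, limma adjusted p = 0.749 over probes). The probe was far dimmer, with Cy5 intensities of 144 to 395 on the DOT1-null arrays and 104.5 to 146.5 on the wildtype arrays over a local background of 57 to 71 and 58 to 64. The Cy3 intensities of this probe were 34 to 65 on the DOT1-null arrays and 33 to 38 on the wildtype arrays. The local Cy3 background was 22 to 25 and 21 to 24. With Cy3 this near background, the probe cannot decide whether the transcript differed between groups. The mean of both probes counts this dim probe equally. With that mean in place of the brighter probe, the difference of Gadd45gip1 was -0.44 and its limma adjusted p was 0.111.

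**Figure D1:**
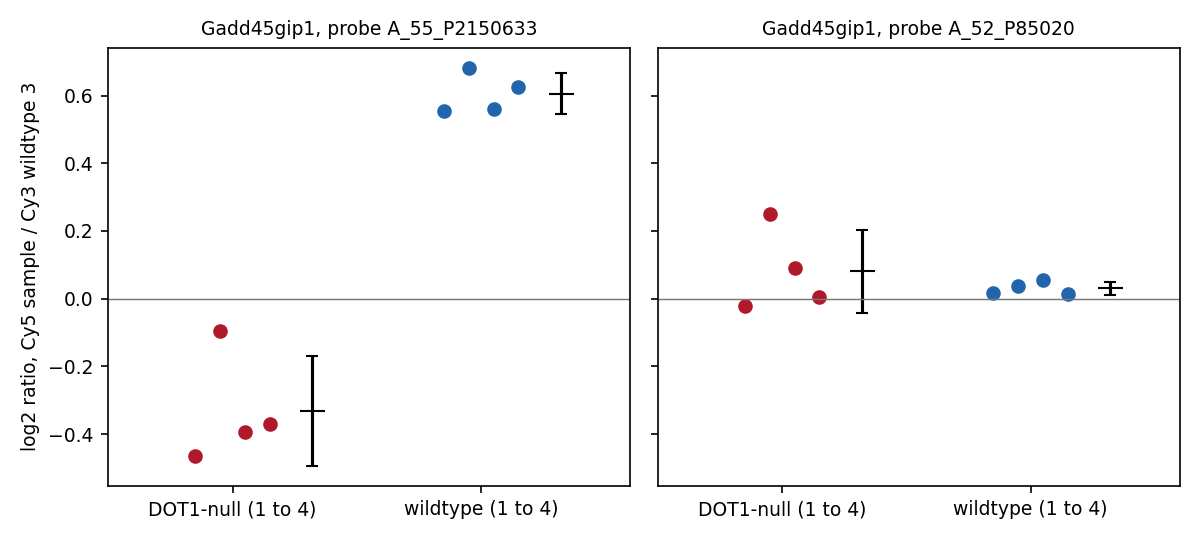
Log2 ratio of sample (Cy5) to wildtype 3 RNA (Cy3) for both Gadd45gip1 probes, with a point per array and mean ± SD beside each group (4 DOT1-null arrays left, 4 wildtype arrays right). By probe A_55_P2150633 the DOT1-null arrays lie between -0.46 and -0.09 and the wildtype arrays between 0.56 and 0.68, while by probe A_52_P85020 the groups overlap.

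Most other members were slightly lower in DOT1-null, by less than Gadd45gip1. Of the 78 tested members 72 (92.3%) had a difference below 0, with a median of -0.20, while over all 23354 genes tested 54.1% were below 0 and the median was -0.02. No member other than Gadd45gip1 had an adjusted p under 0.05 in either direction. Without adjustment, 29 members had p under 0.05 and were lower (37.2%, against 13.6% of all genes tested), and 1 was higher (10.4% of all genes tested were higher). The DOT1-null and wildtype arrays did not overlap for 15 of 77 members with values on all arrays that were lower (7.64% of 21226 such genes) and for 1 that was higher (3.85%). These counts include Gadd45gip1, which was chosen by this contrast. Without it 71 of 77 members were below 0 and 28 were lower at an unadjusted p under 0.05 (36.4%). Of the 76 with values on all arrays, 14 were then lower with no overlap (18.4%). Under median centring without loess all 78 members were below 0, but there the median of all genes was -0.30. In bulk RNA of this kind, fewer cells of a type and less RNA per cell cannot be told apart.

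Large subunit genes had a median difference of -0.21 over 48 tested genes, with 45 below 0 and 3 above 0. Of them 18 were lower at an unadjusted p under 0.05 (37.5%, against 13.6% of all genes tested), and 10 were lower with no overlap between groups (20.8%, against 7.64%). Mrpl49, a protein of the mitochondrial ribosome with no bacterial counterpart, had log2 ratios of 0.03, 0.15, -0.05 and 0.05 on DOT1-null 1 to 4, against 0.50, 0.46, 0.44 and 0.39 on wildtype 1 to 4. Every DOT1-null array was below every wildtype array, and the difference was -0.40 (SE 0.08, limma adjusted p = 0.104). Mrpl16, a counterpart of a bacterial protein near the peptidyl transferase centre, had -0.43, -0.34, -0.43 and -0.35 on the DOT1-null arrays, against 0.13, -0.08, 0.02 and -0.05 on the wildtype arrays. Here too the groups did not overlap, and DOT1-null 2 stood with the other DOT1-null arrays, with a difference of -0.39 (SE 0.08, limma adjusted p = 0.105).

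Mrpl17 had the lowest difference of the large subunit genes named Mrpl, at -0.50 (SE 0.14, limma adjusted p = 0.113). Its log2 ratios were 0.05, 0.44, -0.26 and 0.02 on the DOT1-null arrays, against 0.60, 0.48, 0.65 and 0.54 on the wildtype arrays. The groups did not overlap, but DOT1-null 2 (0.44) came close to the lowest wildtype array (0.48). Mrpl38, a mitochondrial addition to the large subunit, had -0.01, 0.07, -0.37 and 0.00 on the DOT1-null arrays, against 0.46, 0.21, 0.59 and 0.38 on the wildtype arrays. Its groups did not overlap either, with a difference of -0.49 (SE 0.12, limma adjusted p = 0.112), and DOT1-null 3 was far below the other DOT1-null arrays. Mrpl15 had a difference of -0.43 and Mrpl23, a counterpart of a tunnel exit protein, of -0.28, both with groups that did not overlap. Mrpl34 had a difference of -0.45 with overlapping groups, since DOT1-null 2 (-0.03) lay above the lowest wildtype array (-0.08). Mrpl58, a peptidyl-tRNA hydrolase built into the large subunit, had a difference of -0.27 (SE 0.09, limma adjusted p = 0.136).

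The 3 large subunit genes above 0 were Mrpl24, Mrpl50 and Mrpl3, named here after their values were seen. Mrpl24 had log2 ratios of 0.15, -0.08, 0.00 and 0.15 on the DOT1-null arrays, against -0.20, -0.21, -0.20 and -0.11 on the wildtype arrays. Among the 77 members with values on all arrays it was the only one whose DOT1-null arrays all lay above its wildtype arrays, with a difference of 0.24 (SE 0.08, limma adjusted p = 0.15).

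Small subunit genes had a median difference of -0.15 over 29 tested genes, with 26 below 0 and 3 above 0. Of them 10 were lower at an unadjusted p under 0.05 (34.5%, against 13.6% of all genes tested), and 4 of the 28 with values on all arrays were lower with no overlap between groups (14.3%, against 7.64%). Mrps11 had log2 ratios of -0.07, 0.30 and -0.10 on DOT1-null 1, 2 and 4, against 0.56, 0.46, 0.60 and 0.67 on wildtype 1 to 4. Its spot was marked by the scanner software on DOT1-null 3 and left out, and over the remaining 7 arrays the difference was -0.53 (SE 0.12, limma adjusted p = 0.112). Mrps12, whose bacterial counterpart lies at the decoding site, had -0.09, 0.60, 0.27 and -0.14 on the DOT1-null arrays, against 0.67, 0.73, 0.55 and 0.78 on the wildtype arrays. DOT1-null 2 lay among the wildtype arrays, and the difference was -0.52 (SE 0.16, limma adjusted p = 0.122).

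Mrps15 had log2 ratios of 0.04, 0.38, -0.28 and 0.06 on the DOT1-null arrays, against 0.43, 0.48, 0.49 and 0.52 on the wildtype arrays, with no overlap and a difference of -0.43 (SE 0.13, limma adjusted p = 0.121). Mrps17 had 0.00, 0.27, -0.11 and 0.03 on the DOT1-null arrays, against 0.43, 0.37, 0.33 and 0.36 on the wildtype arrays, also with no overlap and a difference of -0.33 (SE 0.10, limma adjusted p = 0.121). Mrps24 (-0.39), Mrps27 (-0.37), a pentatricopeptide repeat protein that binds RNA, and Mrps18a (-0.34) overlapped between groups. In all 3 the log2 ratio of DOT1-null 2 (0.39, 0.77 and 0.51) was the highest of the DOT1-null arrays and above at least 1 wildtype array.

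**Figure D2:**
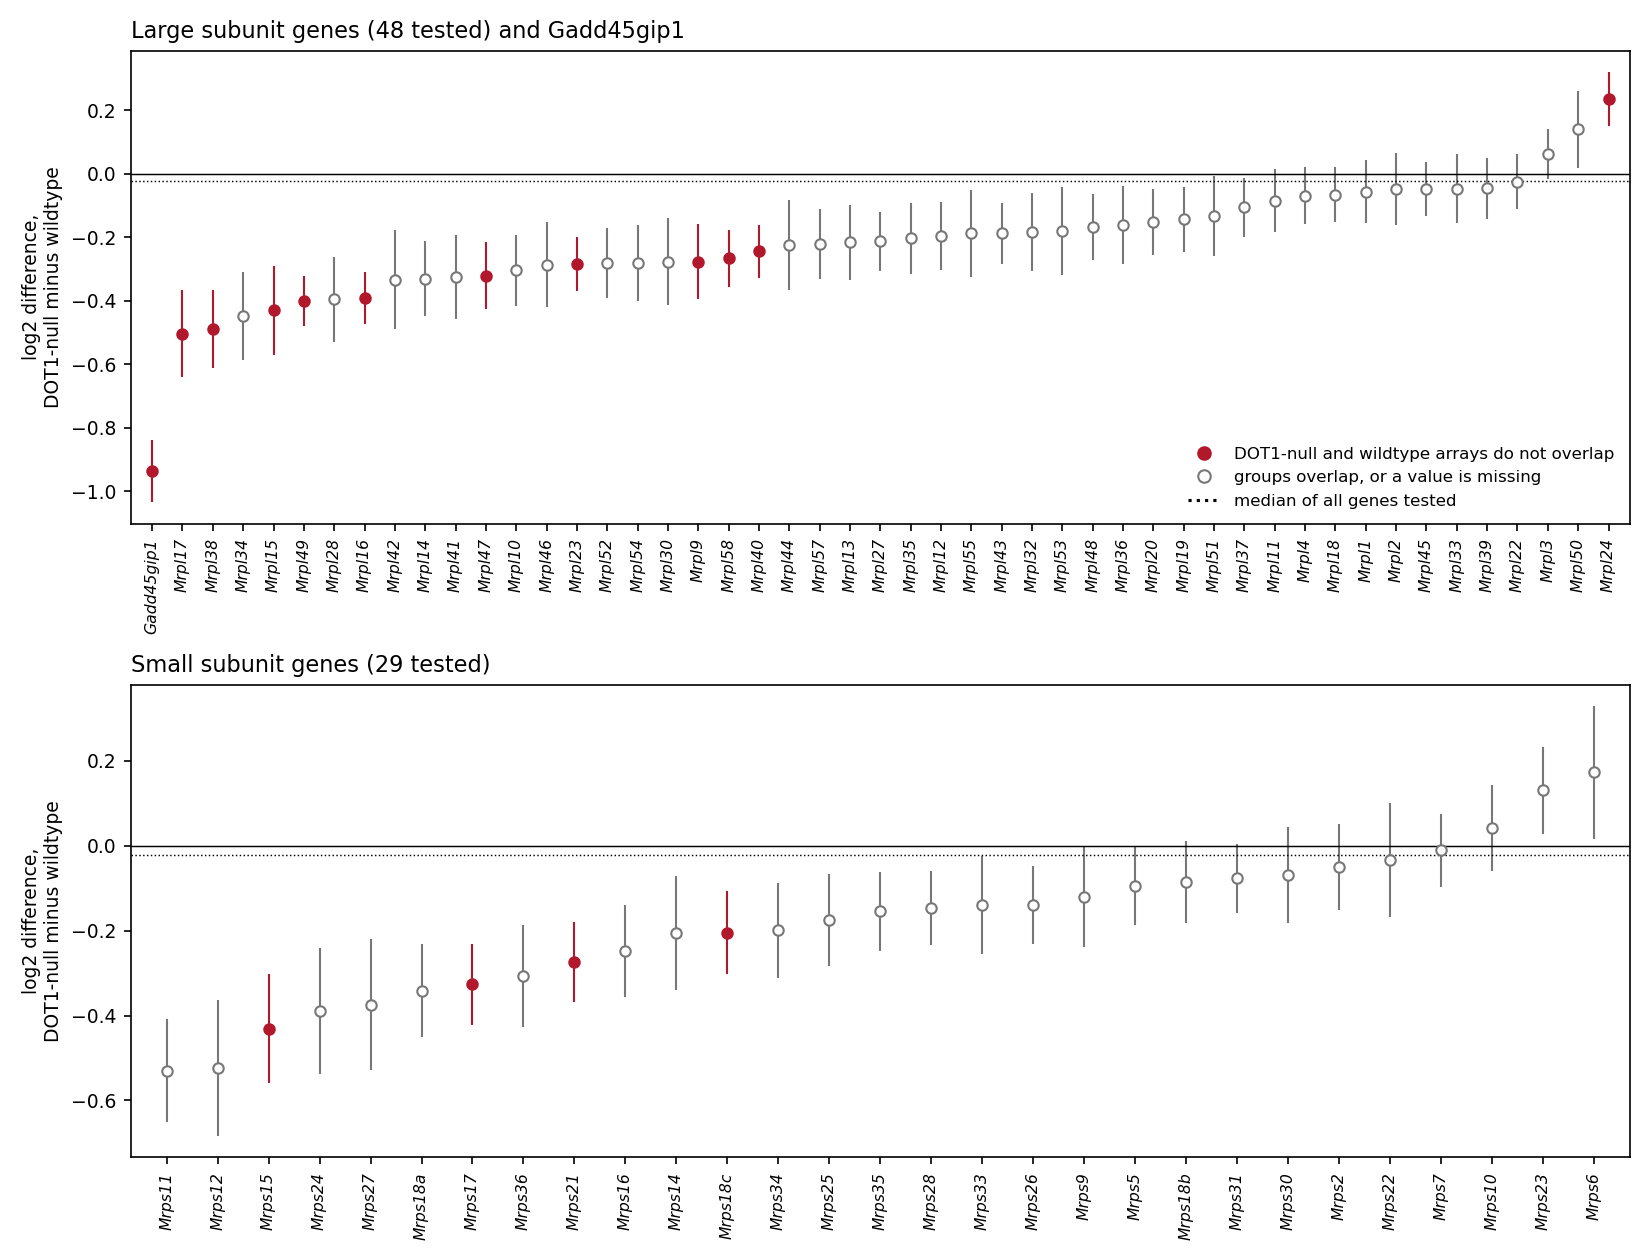
Log2 difference (DOT1-null minus wildtype) with its limma SE for each tested member, ordered within the large subunit genes with Gadd45gip1 (top) and the small subunit genes (bottom). Filled points mark members whose DOT1-null and wildtype arrays do not overlap, and most points lie below the dotted median of all genes tested (-0.02), with Gadd45gip1 lowest at -0.94.

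Large and small subunit genes had similar medians on each array. After the wildtype mean of each gene was subtracted, the median over large subunit genes was -0.24, -0.02, -0.35 and -0.21 on DOT1-null 1 to 4, against 0.03, -0.08, 0.06 and -0.03 on wildtype 1 to 4. The median over small subunit genes was -0.18, -0.04, -0.37 and -0.15 on the DOT1-null arrays, against 0.02, -0.07, 0.07 and -0.01 on the wildtype arrays. DOT1-null 1, 3 and 4 lay below all wildtype arrays in both subunits, and DOT1-null 2 lay among the wildtype arrays. The median of the large subunit minus that of the small subunit ranged from -0.07 to 0.02 on the DOT1-null arrays and from -0.02 to 0.01 on the wildtype arrays, so the subunits differed by less than the spread between DOT1-null arrays. Over all genes tested the same medians were -0.01, -0.02, -0.07 and -0.01 on the DOT1-null arrays and -0.01 to 0.00 on the wildtype arrays.

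DOT1-null 3 was the lowest of the DOT1-null arrays for 51 of 77 members, and DOT1-null 2 was the highest for 50. The SD between DOT1-null arrays was larger than that between wildtype arrays for 65 of 77 members (84.4%, against 72.1% of all genes), with medians of 0.18 in DOT1-null and 0.09 in wildtype for the large subunit and 0.16 in DOT1-null and 0.10 in wildtype for the small subunit. Without DOT1-null 2, 26 members were lower at an adjusted p under 0.05 (17 large subunit genes, 8 small subunit genes and Gadd45gip1), and 1 was higher (Mrpl24). In that fit 11.2% of all genes tested were lower and 10% were higher, and the medians were -0.27 for the large and -0.20 for the small subunit. The members lower in that fit were 33.3% of those tested. DOT1-null 2 was singled out here after its values were seen. No member was lower at that threshold when any other single array was left out.

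**Figure D3:**
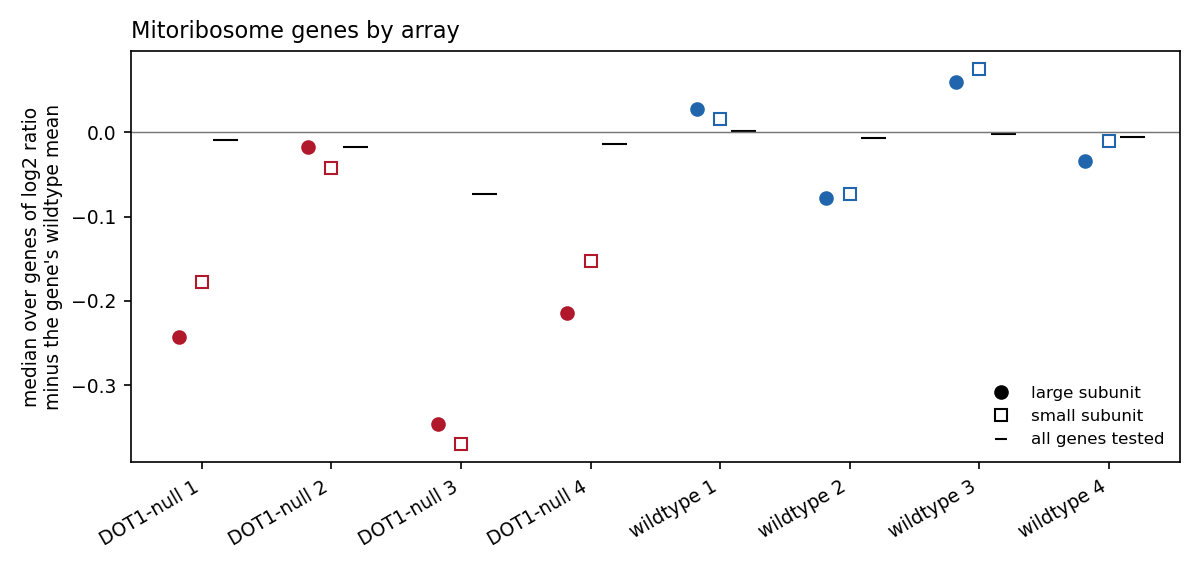
Median over large subunit genes (circles, 48), small subunit genes (squares, 28) and all genes tested (bars) of the log2 ratio minus the wildtype mean of each gene, on each array. Both subunits are lowest on DOT1-null 3 (-0.35 and -0.37) and lie near 0 on DOT1-null 2 (-0.02 and -0.04), among the wildtype arrays.

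Of the members, 23 had 2 tested probes, and the probes of several genes differed from each other as those of Gadd45gip1 did. Mrps7, a protein of the small subunit head, had a difference of -0.01 (SE 0.08) by its brighter probe A_55_P1978236. Its other probe A_51_P193302 had log2 ratios of -0.50, 0.13, -0.62 and 0.09 on the DOT1-null arrays, against 0.61, 0.55, 0.39 and 0.65 on the wildtype arrays, with no overlap and a difference of -0.78 (SE 0.18, limma adjusted p = 0.102 over probes). Mrpl4, a peptide tunnel protein in bacteria, had a difference of -0.07 by the brighter probe and -0.55 by the other (limma adjusted p = 0.106 over probes). In both genes it was the dimmer probe that was lower in DOT1-null, the reverse of Gadd45gip1.

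Some probes of a gene pointed in opposite directions. Mrpl41 had a difference of -0.33 by A_52_P209172 and 0.29 by A_55_P1969221, whose ratios were 0.43, 0.19, 0.14 and 0.48 on the DOT1-null arrays and 0.02, 0.07, 0.02 and -0.03 on the wildtype arrays. Mrps25 had -0.17 by A_55_P2101426 and 0.41 by A_55_P2101431. Mrpl50 had 0.14 by the brighter and -0.21 by the other probe, Mrps23 0.13 and -0.20, and Mrpl27 -0.21 and 0.05. For these genes the sign of the difference depends on the probe, and none of their probes had an adjusted p under 0.05. The probes of Mrps33, which the array design assigns to different transcripts of the gene, had differences of -0.14 and -0.43. By contrast both probes of Mrpl49 (-0.40 and -0.48), Mrpl15 (-0.43 and -0.47) and Mrps17 (-0.33 and -0.41) were lower by similar amounts.

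**Figure D4:**
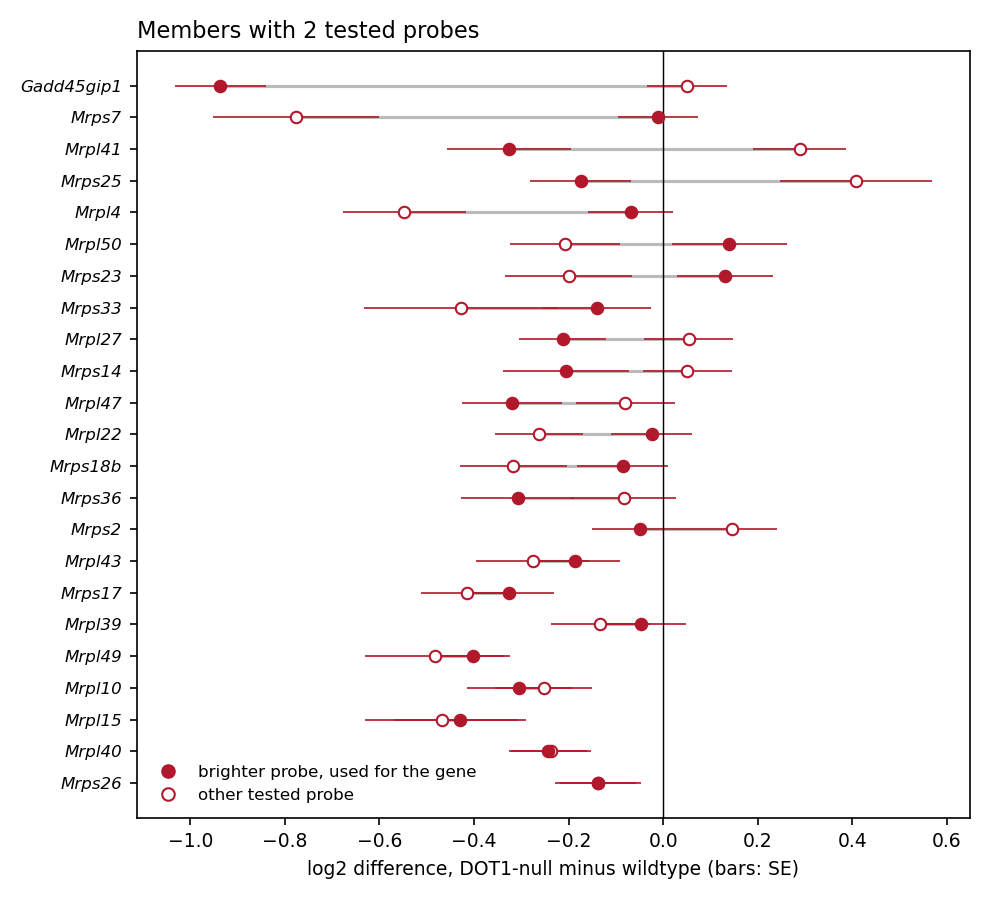
Log2 difference (DOT1-null minus wildtype) with its limma SE for both tested probes of the 23 members that have 2, ordered by the gap between them. Gadd45gip1 has the widest gap (-0.94 and 0.05), and Mrps7 is next (-0.01 and -0.78).

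The array with wildtype 3 RNA in both dyes gives, for each probe, the log2 ratio with no difference in RNA. It was 0.56 for the Gadd45gip1 probe with the difference, as high as or higher than 95.6% of the 31679 probes tested, and 0.06 for the other Gadd45gip1 probe (53.3%). Over the member probes it ranged from -0.47 to 0.68 in the large subunit and from -0.38 to 0.71 in the small subunit. For all probes tested, the difference of DOT1-null to wildtype 1, 2 and 4 was lower the higher this self-hybridisation ratio was, with a median of 0.09 below a ratio of -0.4 (975 probes), -0.01 between 0 and 0.2 (10530 probes) and -0.23 above 0.4 (3036 probes). Member probes had medians of -0.16 between -0.2 and 0 (21 probes), -0.16 between 0 and 0.2 (31 probes) and -0.37 above 0.4 (20 probes, all below 0). The remaining bins held few member probes, with medians of 0.03 (2 probes), -0.05 (14 probes) and -0.20 (13 probes).

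The median of member probes was below that of all probes in each of these bins. Pearson's r between the self-hybridisation ratio and the difference was -0.49 over the 101 member probes and -0.23 over all probes, given as a description, since the probes share arrays and wildtype 3 RNA. Among the 23 members with 2 probes, the probe with the higher self-hybridisation ratio had the lower difference in 15 (65.2%, against 62.7% of 4126 genes), and in 7 of the 9 whose ratios were at least 0.3 apart (77.8%, against 73.6% of 1341 genes). The self-hybridisation ratio thus moved with the difference, in members as in all genes, and its part in the difference was not tested.

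**Figure D5:**
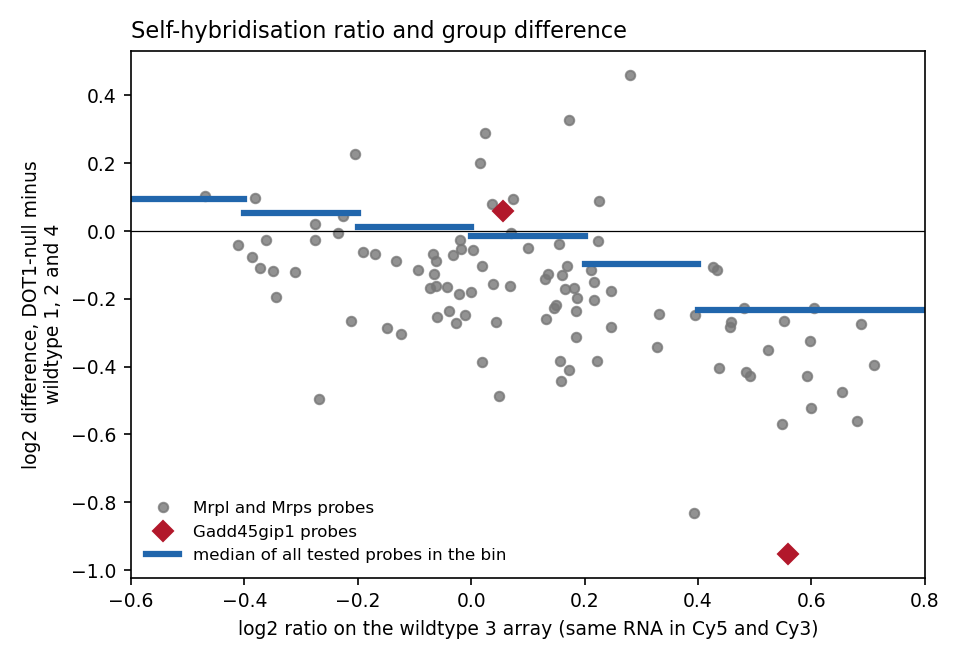
Log2 ratio on the wildtype 3 array, where both dyes carried the same RNA (x axis), against the log2 difference of DOT1-null to wildtype 1, 2 and 4 (y axis) for the 101 member probes, with the median of all tested probes in each bin as a bar. The medians fall from left to right, to -0.23 for all probes above a ratio of 0.4, and Gadd45gip1's lower point lies at a ratio of 0.56.

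In Cy3, which carried the same RNA on every array, the difference between arrays with DOT1-null and arrays with wildtype RNA in Cy5 had a median of -0.03 over member probes and a range of -0.32 to 0.12. Over all probes tested the median was -0.06. Of the member probes 71 of 101 were below 0, against 70.7% of all probes. The lowest limma adjusted p of a member probe was 0.71, and 0% of all probes had an adjusted p under 0.05. No member probe had an unadjusted limma p under 0.05 in Cy3, against 1203 of all 31679 probes tested. In Cy5 alone after quantile normalisation, 94 of 101 member probes were below 0 with a median of -0.25, against a median of -0.19 over all probes. On that scale most probes were lower in DOT1-null, and 55 of 78 member genes lay below the median of all genes, against 71 in the ratio.

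Other genes of the mitochondrial translation system were tested by lists. None of their genes had an adjusted p under 0.05 (0.00856% of all genes were lower at that threshold). At an unadjusted p under 0.05, 2 assembly genes were lower and 1 was higher, 1 translation factor and 1 synthetase were lower and 1 of each was higher, and Lrpprc, Ppargc1a and Gadd45g were the only ones of their lists past it, all higher. Over all genes tested 13.6% were lower and 10.4% higher at that threshold, against 9.09% of assembly genes, 7.69% of translation factors and 6.25% of synthetases that were lower. Of the subunits without an Mrp symbol, Dap3, a GTP-binding protein of the small subunit, and Aurkaip1 and Ptcd3 had differences of 0.15, 0.10 and 0.13, while Chchd1 had -0.13, so 3 of 4 were above 0. The other probe of Dap3 had -0.07, and with median centring in place of loess Dap3 was below 0. In mitoribosome assembly 16 of 22 tested genes were below 0 with a median of -0.09. Ddx28, an RNA helicase for the large subunit, had a difference of -0.28 (SE 0.11, limma adjusted p = 0.162), and Dhx30, another RNA helicase, had 0.24 (SE 0.09, limma adjusted p = 0.164).

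Of the translation factors 8 of 13 were below 0 with a median of -0.02. Mtif2, the initiation factor, by its only tested probe, had log2 ratios of 1.79, -0.09, 1.30 and 2.20 on DOT1-null 1 to 4, against 0.01, 0.05, 0.05 and -0.01 on wildtype 1 to 4. It was high on DOT1-null 1, 3 and 4 and at the wildtype level on DOT1-null 2, and its difference of 1.27 (SE 0.40) had a limma adjusted p of 0.126. Tufm, the elongation factor that brings aminoacyl-tRNA, had a difference of -0.30 (SE 0.10, limma adjusted p = 0.143). Of the mitochondrial aminoacyl-tRNA synthetases 11 of 16 were below 0 with a median of -0.13, among them Sars2 at -0.33, while Hars2 was at 0.37.

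Of genes for mitochondrial transcription and RNA 5 of 13 were below 0 with a median of 0.04. Lrpprc and Slirp, whose proteins form a complex that stabilises mitochondrial messenger RNAs, had differences of 0.38 and -0.35. Of the regulators of nuclear genes for mitochondria 6 of 10 were below 0 with a median of -0.08. Ppargc1a, a coactivator of such genes, had ratios of 1.04, -0.06, 0.81 and 1.04 on the DOT1-null arrays, against 0.11, -0.14, 0.47 and -0.01 on the wildtype arrays. As with Mtif2, DOT1-null 2 stood with wildtype, and the difference was 0.60 (SE 0.24, limma adjusted p = 0.178). Gabpa, an ETS factor, had a difference of -0.31 by its brighter probe and 0.16 by the other. Of the GADD45 genes and partners 2 of 5 were below 0, with Gadd45g at 0.55 and Stat3 at -0.12 (0.17 by its other probe).

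For comparison, 49 of 74 cytosolic ribosomal protein genes were below 0 with a median of -0.05, and 28 of 36 complex I genes named Nduf were below 0 with a median of -0.11. The medians of both mitoribosome subunits (-0.21 and -0.15) were lower than either, which carries no test. Ureteric bud markers were below 0 in 11 of 16 with a median of -0.18, and the 15 with values on all arrays had a summed Cy5 intensity of 164832 to 194534 on the DOT1-null arrays and 129093 to 166812 on the wildtype arrays. Of these markers 6 were lower at an unadjusted p under 0.05 (37.5%, against 37.2% of the members and 13.6% of all genes tested), and 3 of the 15 were lower with no overlap between groups (20%, against 19.5% of the members and 7.64% of all genes). On the other side, 1 marker was higher at that p (10.4% of all genes tested) and 1 was higher with no overlap (3.85% of all genes). The differences of the bud markers ranged from -0.91 to 0.79. Markers of other cells were also measured. All 6 leukocyte markers were below 0 with a median of -0.31, 3 of them (Lyz2, S100a8 and Coro1a) with no overlap between groups (60% of the 5 with values on all arrays, against 7.64% of all genes), and the summed intensity of those 5 was 5090 to 6036 on the DOT1-null arrays and 5548 to 8999 on the wildtype arrays. All 5 stroma markers were below 0 with a median of -0.44, at 5175 to 15825 on the DOT1-null arrays and 7100 to 16305 on the wildtype arrays. Stroma markers were highest of the DOT1-null arrays on DOT1-null 2, as were most members, nephron progenitor markers and cytosolic ribosomal protein genes. After the wildtype mean of each gene was subtracted, the median of stroma markers was 0.25, 0.34, -0.49 and 0.12 on wildtype 1 to 4. That of all members was 0.02, -0.07, 0.06 and -0.02 on the same arrays. All 5 endothelium markers were above 0 with a median of 0.18. Nephron progenitor markers had the lowest median of these lists, -0.48, with 3 of 4 below 0. Their differences ranged from -0.82 to 1.11. At an unadjusted limma p under 0.05, 1 of them was higher and 0 were lower (10.4% and 13.6% of all genes tested). Markers of proximal tubule and podocytes had a median of -0.18 with 4 of 6 below 0, and erythroid markers had 0.02 with 1 of 3 below 0. The summed intensity overlapped between groups for each of these marker lists. The part of these cells in the members' differences was not tested.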

How the data were processed

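The members and lists were chosen with earlier results of these data known. Each of 8 arrays held 1 sample in Cy5 and wildtype 3 RNA in Cy3, without a dye swap. The deposited scanner files hold the intensity of each of 62976 spots, which per the submitters' processing notes the authors read with version 10.7.3.1 of Agilent Feature Extraction. The files and the deposited series value table also give log10 ratios of Cy5 to Cy3, background-subtracted and dye-normalised by the scanner software per the file headers. The table's columns correlated with the scanner ratios at 0.999999 or above, with medians of 0 on 7 of the arrays and 0.0152 on DOT1-null 3. The array annotation is for mm9, per the file headers.

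Median intensities were corrected with normexp (offset 50) and the log2 ratios normalised by loess within arrays, control spots having weight 0, with R 4.3.3 and limma 3.58.1. Spots with a non-uniformity or outlier mark were dropped, and replicate spots averaged. Probes needed Cy5 well above background on at least 4 arrays and unmarked values on at least 3 arrays per group. A gene took its brightest probe. Of 37850 systematic names 21717 matched the RefSeq table of GRCm38.p6, the rest keeping their own names, which left 23354 genes and 31679 probes tested. The 2-sided comparison used lmFit and eBayes, Benjamini-Hochberg adjustment over all genes or probes, and a threshold of 0.05. All adjusted p-values come from limma. The fit was also run on simulated data with independent noise, smaller than in these arrays and equal in both groups. No simulated array deviated as DOT1-null 2 and 3 did, so that run does not check the fit for such arrays. The number of arrays limits the precision.

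Genes were named by this rule: Gadd45gip1, the 5 genes of each subunit with the largest absolute difference and the 5 with the smallest p, up to 8 with the widest gap between probes, members that did not pass the filter, and up to 2 per list with the smallest p. Other genes were named after their values were seen. Same-numbered DOT1-null and wildtype samples had correlations of their deviations from -0.24 to 0.11, so the numbers were not used as pairs. Alternatives covered background, normalisation, filters, variance model, array weights, probe choice, a block and arrays left out.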

Additional observations from a re-analysis of the deposited data

Results flagged for a closer look

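Among 79 sets of 4 values checked, 3 held an array far from the others, and chance flags about 1 in 20 such sets. Mrpl38 was at -0.37 on DOT1-null 3, against -0.01 to 0.07 on the other DOT1-null arrays. Mrpl50 was at -0.12 on wildtype 1, against -0.47 to -0.42 on the other wildtype arrays. Ddx28 was at 0.15 on DOT1-null 2, against -0.21 to -0.18 on the other DOT1-null arrays. Values are log2 ratios.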

How the results depend on the processing

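The median differences of both subunits were below 0 under all 22 alternatives, from -0.73 to -0.17 for the large and from -0.70 to -0.13 for the small subunit, and 67 to 78 members were below 0. With median centring the subunit medians were -0.73 and -0.70, but the median of all genes was -0.30, against -0.02 as reported, and 76 of 78 members lay below it. With Cy5 alone that median was also lower, and 55 members lay below it. The share of all genes below 0 was 77.4% with median centring and 69.3% with Cy5 alone, against 54.1% as reported. With median centring, Mrpl50, Mrps23, Dap3, Dhx30, Hars2, Lrpprc and Gadd45g, which were above 0 as reported, were below 0.

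Gadd45gip1 was below 0 under all alternatives but lost its call in 15, whose cause was not tested. The difference and adjusted p were -0.94 and 0.0817 with an offset of 0, -0.94 and 0.0626 without background subtraction, -0.96 and 0.0768 with the scanner's log ratio, -0.96 and 0.0771 with the series value table, -1.47 and 0.111 with median centring, -0.94 and 0.225 with Cy5 alone, and -0.44 and 0.111 with the mean over probes. In each of these 0 members and, except with the mean over probes, which was not run per probe, 0 member probes were called lower, against 1 each as reported. With the replicate number as a block the difference was -0.94 with an adjusted p of 0.134, and 0 members and 0 member probes were called, but the numbers did not pair the samples. Leaving out 1 array gave differences from -1.02 to -0.89 and adjusted p-values from 4.28e-04 to 0.162, with 0 to 26 members and 0 to 35 member probes lower and 0 to 1 members higher.

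Members called lower numbered 26 only without DOT1-null 2, and 0 without any other single array. With array weights 22 members and 27 member probes were lower and 1 member was higher, while 9.22% of all genes were lower. Without DOT1-null 2 and 3 together, 22 members and 29 member probes were lower and 1 was higher, while 10.1% of all genes were lower. The other Gadd45gip1 probe, whose Cy3 lay near background, was called in no alternative (adjusted p 0.646 to 0.984).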
